A study of Camelus dromedarius with 4 samples.

Results

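The interferon response genes described here are a list of 37 genes that sense viral nucleic acid, receive and relay the interferon signal, or are switched on by it, taken as a list of names with earlier results of these data known. Season means were present for 33 of the 37, out of 16053 gene symbols with season means in the whole table. IFIH1 was listed without means, and OAS2, ISG20 and IRF9 had no row in the table as used here and were not analysed. DHX58, BST2 and IFI35 had means under 10 in both seasons, which left 30 genes above the minimum used in the study.

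RNA from the supraoptic nucleus, the hypothalamic nucleus whose magnocellular neurones make vasopressin and oxytocin, was sequenced from dromedary camels in winter (2 libraries) and in summer (2 libraries), with 1 animal for each library. All were healthy, age-matched adult males of the Tergui breed that had been given water and were killed for food. The winter animals came from El Oued and the summer animals from Ouargla, so season, place and date of slaughter cannot be told apart. With 2 animals per season, the smallest p that an exact two-sided permutation test can give is 0.333.

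Interferons are secreted proteins that warn cells of infection. Type I interferons (IFN-α, IFN-β and relatives) bind the IFNAR receptor, and type II interferon (IFN-γ) binds the IFNGR receptor. Both signal through Janus kinases and STAT proteins, which enter the nucleus with interferon regulatory factors (IRFs) and switch on antiviral effector genes. In brain, microglia, astrocytes, endothelium and neurones can all respond, and a low tone of interferon signalling is present without infection.

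The tissue carried its defining markers. The mean normalised count of vasopressin (listed as a putative AVP) was 2560 in winter and 11822 in summer, and that of oxytocin was 621 and 592. Reads on gene models ranged from 4379162 to 6902037 per library. Each season mean of the deposited table is the average of 2 whole-read counts, each divided by its library's size factor, and solving for those reads returned a single answer in both seasons for 18 of the 30 genes. These libraries are called first winter (size factor 1.33), second winter (0.946), first summer (0.922) and second summer (0.877), and they were not tied to the numbered animals. Normalised reads below are reads divided by that size factor. In whole tissue, fewer cells of a type and less RNA per cell cannot be told apart.

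Most of the antiviral effectors had lower means in winter than in summer, while the transcription factors were spread around no difference. The winter mean was below the summer mean for 22 of the 30 genes, against 53.8% of the 13811 symbols that passed the same minimum. The median log2 ratio of the season means (winter over summer) was -0.25 over the 30 genes and -0.04 over all such symbols. Centred on the median of all symbols, 19 of the 30 were lower in winter. All 4 IFIT genes, all 3 genes of the MX and membrane group and all 4 receptors lay below 0, as did 4 of the 5 RNA and nucleotide effectors. Of these, the receptor IFNAR1 (-0.027) and the effector EIF2AK2 (-0.015) lay above the median of all symbols (-0.037). Only 3 of the 5 genes in the group of ISG15 and others lay below 0 (median -0.05), and 3 of the 8 transcription factors. Season means differed by more than 2-fold for 2 of the 30 genes, OASL and IRF4, against 7.26% of all symbols.

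**Figure D1:**
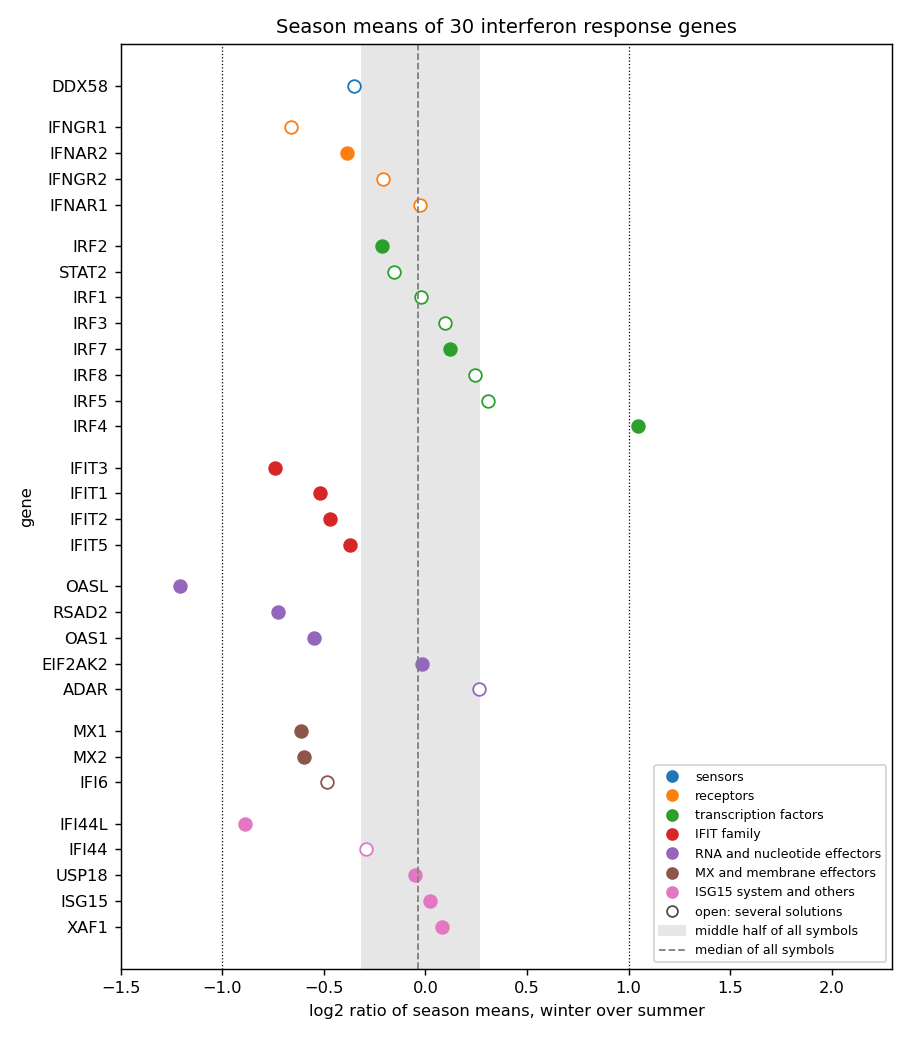
Log2 ratio of the season means (winter over summer, horizontal axis) of the 30 genes, grouped by role, with open points where reads per library had several solutions. The grey band is the interquartile range of all symbols (-0.31 to 0.26), dotted lines mark 2-fold, and the IFIT and MX genes lie left of the band while most IRF genes lie inside it.

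None of these differences passed a test. Among the 7647 genes with recovered reads, fitted together by quasi-likelihood in edgeR, 0 of the 18 genes met the rule of the study (unadjusted p under 0.05 and more than 2-fold), against 1.67% of all genes tested. At an unadjusted p under 0.05 alone the count was also 0, against 1.99%, and none of the 7647 genes passed a Benjamini-Hochberg adjusted p of 0.05 (0%). Reads were simulated with a coefficient of variation of 0.5 between animals (0.46 in these data) and 200 genes changed 4-fold. Of these 200, 146 met the rule of the study and 0 passed that adjusted threshold. Smaller changes were not simulated. The lack of adjusted calls therefore cannot tell no change from a change of that size. DESeq2, edgeR's exact test and limma-voom also called 0 of the 18, and over the 7647 genes they called 1, 1 and 0 at an adjusted p of 0.05. The smallest edgeR p was 0.077, for OASL, and the adjusted p-values of the 18 genes ran from 0.982 to 0.998. The fitted change was below 0 (lower in winter) for 14 of the 18, against 58.4% of all genes tested, where recovery of reads favours low winter means.

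The fitted changes moved when single libraries were left out, which leaves 1 library in that season and takes the spread from the 2 of the other season. Leaving out the first winter library moved IFIT1, IFIT3 and MX2 to fitted log2 changes of -1.44, -1.60 and -1.44. Leaving out the second winter library moved them to 0.037, -0.20 and -0.07. Without the second summer library OASL and RSAD2 were at -1.49 and -1.30, and IRF4 and ISG15 at 2.17 and 2.22. Without the first summer library OASL and RSAD2 were at -0.85 and 0.27, and IRF4 and ISG15 at 0.42 and -0.78. The median fitted log2 change of the 18 genes was -0.43 (all genes -0.11). It became -0.70 without the first winter library (all genes -0.18) and -0.05 without the second winter library (all genes -0.11). It was -0.56 without the first summer library (all genes -0.16) and -0.28 without the second summer library (all genes 0.16).

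**Figure D2:**
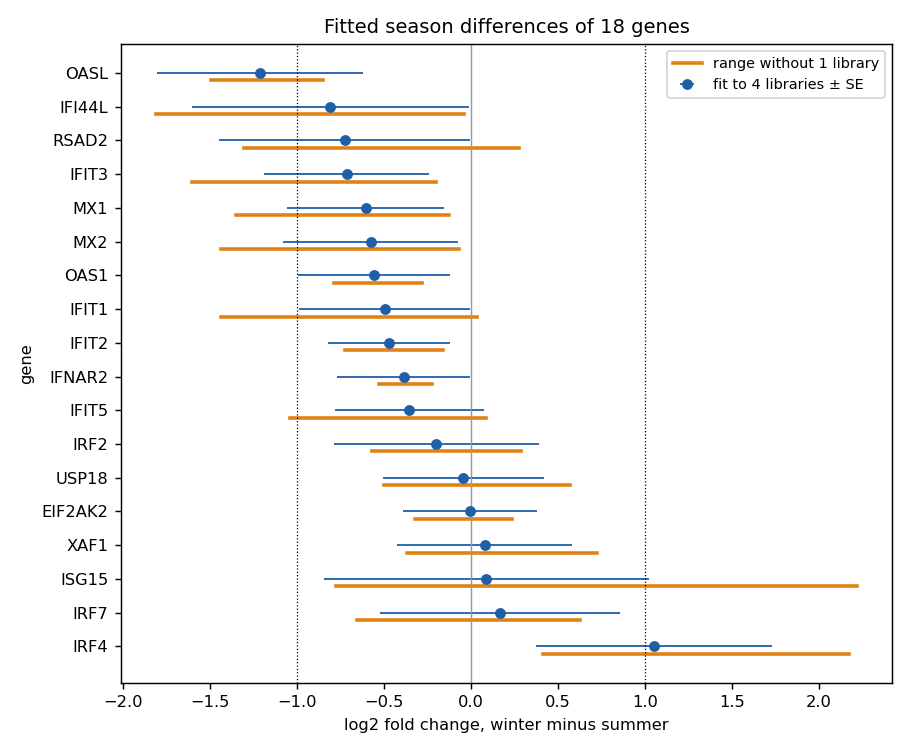
Fitted log2 fold change (winter minus summer, horizontal axis) of the 18 genes with recovered reads, as points with SE bars, and the range obtained on leaving out each of the 4 libraries in turn (orange). The orange range crosses 0 for 9 genes, stays below 0 for OASL, IFI44L, IFIT3, MX1, MX2, OAS1, IFIT2 and IFNAR2, and stays above 0 for IRF4.

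Sensors recognise viral RNA in the cytoplasm. DDX58 (RIG-I) had a mean normalised count of 223 in winter and 285 in summer, a ratio of 0.783. Its summer reads had a single solution, 272 and 242, but its winter reads had 2, either 368 and 160 or 183 and 292, so the order of the winter animals is unknown. DHX58 (LGP2), a regulator of RIG-I, had winter counts of 3 and 1 and summer counts of 5 and 8, too few to read a difference from.

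Among the receptor genes, IFNAR2, the ligand-binding chain of the type I receptor, had 55.1 and 56.1 normalised reads in winter and 80.2 and 65.0 in summer. Both summer libraries lay above both winter libraries, with a fitted log2 change of -0.39 ± 0.38 (SE). Its partner chain IFNAR1 had means of 351 in winter and 357 in summer, a ratio of 0.982. The type II receptor chains had ratios of 0.632 (IFNGR1, 615 in winter and 973 in summer) and 0.864 (IFNGR2, 172 and 199). The IFNGR1 ratio was the lowest of the 4 receptor genes, but 3 solutions in winter and 5 in summer leave its reads per animal unknown. With the most even solutions its unadjusted edgeR p was 0.0054. Those solutions are chosen to put the libraries of a season closest together, so a small p is favoured by the choice. In that fit 2 of the 30 genes and 844 of 13811 symbols had an unadjusted p under 0.05, and 181 symbols passed the adjusted threshold. IFNGR1 met neither the rule of the study nor the adjusted threshold there. With the least even solutions OASL was the only 1 of the 30 genes with an unadjusted edgeR p under 0.05.

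The transcription factors showed no common direction. STAT2, which carries the type I signal to the nucleus with IRF9, had means of 528 in winter and 588 in summer. IRF1, an activator, had 135 and 137, and IRF3, which is activated by the RNA sensors, had 247 and 231. IRF5 and IRF8, factors of myeloid cells such as microglia, had higher means in winter, with ratios of 1.24 (174 over 141) and 1.19 (593 over 500).

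IRF2, a repressor of interferon targets, had 34.7 and 23.3 normalised reads in winter and 43.4 and 23.9 in summer, so the seasons overlapped. IRF7, the factor that amplifies type I interferon production and is itself induced by interferon, had 36.2 and 14.8 in winter and 18.4 and 28.5 in summer. For IRF7 the first winter library was highest and the second winter library lowest, with both summer values between them.

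IRF4, a factor of lymphocytes and some macrophages, had 40.0 and 39.1 normalised reads in winter (53 and 37 reads) and 8.68 and 29.6 in summer (8 and 26 reads). It was the 1 gene of the 18 with both winter libraries above both summer libraries, against 13.3% of all genes tested. The winter values lay close together and the summer values 3.42-fold apart. The fitted log2 change was 1.05 ± 0.68 (SE), ranging from 0.42 without the first summer library to 2.17 without the second.

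IFIT proteins bind viral RNA or translation factors and are among the genes most strongly induced by interferon. IFIT1 had 118 and 42.3 normalised reads in winter and 101 and 129 in summer. IFIT3 had 103 and 39.1 in winter and 116 and 122 in summer, and IFIT5 had 139 and 63.5 in winter and 124 and 138 in summer. In these 3 genes the second winter library was lowest, and the first winter library was near the summer values.

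IFIT2 differed from its relatives, with 106 and 120 normalised reads in winter and 126 and 186 in summer. Here the winter animals were alike and the second summer library was the highest. Fitted log2 changes of the family were -0.50 ± 0.49 (IFIT1), -0.47 ± 0.35 (IFIT2), -0.71 ± 0.47 (IFIT3) and -0.35 ± 0.43 (IFIT5), as estimate ± SE, none of them past the rule or the adjusted threshold. Leaving out the second winter library moved these to 0.037 for IFIT1, -0.20 for IFIT3 and 0.087 for IFIT5. IFIT2 and IFIT3 are direct neighbours in the RefSeq annotation of the dromedary assembly mCamDro1.pat, IFIT5 lies 2 protein-coding genes from IFIT3, and how reads shared between these paralogues were counted is uncertain.

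Among the RNA and nucleotide effectors, OASL had the lowest ratio of season means. OASL, a relative of the oligoadenylate synthetases that enhances RIG-I signalling, had 17.4 and 18.0 normalised reads in winter (23 and 17 reads) and 49.9 and 31.9 in summer (46 and 28 reads). Both summer libraries lay above both winter libraries, the winter means being 0.432 of the summer means. The fitted log2 change was -1.21 ± 0.59 (SE), and it stayed between -1.49 and -0.85 when any 1 library was left out. OASL did not meet the rule in this fit. It did when all 30 genes were fitted with the most even or the least even read solutions, as did 1.76% and 1.54% of the 13811 symbols. The reads of OASL were the same in those fits, and what changed was the spread shared over all genes. It did not pass an adjusted p of 0.05 in either.

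OAS1, which makes oligoadenylates on binding double-stranded RNA, had 38.5 and 47.6 normalised reads in winter and 52.1 and 74.1 in summer, again without overlap (log2 change -0.56 ± 0.44, SE). OAS1 and OASL are direct neighbours in the same annotation. RSAD2 (viperin), which makes a chain-terminating nucleotide, had 18.9 and 16.9 in winter and 44.5 and 14.8 in summer. The higher RSAD2 mean in summer came from the first summer library, and the other summer library was the lowest of the 4.

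EIF2AK2 (PKR), the kinase that halts translation on double-stranded RNA, had winter values of 89.0 and 60.3 normalised reads and summer values of 81.3 and 69.5, with season means that were almost equal (ratio 0.990). ADAR, the enzyme that edits adenosine to inosine in double-stranded RNA, had means of 792 in winter and 660 in summer, a ratio of 1.20. It was the only one of these 5 effectors with a higher mean in winter.

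MX1 and MX2 are dynamin-like GTPases that trap viral components. MX1 had 306 and 131 normalised reads in winter (405 and 124 reads) and 293 and 375 in summer (270 and 329 reads). MX2 had 123 and 47.6 in winter and 95.4 and 163 in summer. Both genes showed the order seen in IFIT1, with the second winter library lowest and the second summer library highest.

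The fitted log2 changes were -0.60 ± 0.45 for MX1 and -0.58 ± 0.50 for MX2 (SE). They moved to -0.13 and -0.07 without the second winter library and to -1.35 and -1.44 without the first. IFI6, an interferon-induced membrane protein, had means of 155 in winter and 217 in summer (ratio 0.715), with 2 winter solutions that put either animal lower. BST2 (tetherin), which holds virus particles at the cell surface, had winter counts of 4 and 4 and summer counts of 0 and 0, where 0 reads allow up to 3 reads in a library by counting error alone.

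ISG15, a ubiquitin-like protein that is attached to other proteins after interferon, showed the widest spread within a season among the 18 genes. It had 28.7 and 11.6 normalised reads in winter (38 and 11 reads) and 4.34 and 35.3 in summer (4 and 31 reads). The summer animals thus differed 8.15-fold while the season means were 20.2 and 19.8. USP18, the protease that removes ISG15 and dampens the type I receptor, had 124 and 71.9 in winter and 137 and 66.1 in summer, with overlapping seasons and almost equal means (ratio 0.965).

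IFI44L had 21.1 and 7.40 normalised reads in winter and 15.2 and 37.6 in summer, the season means being 14.3 and 26.4. Its neighbour IFI44 had means of 138 in winter and 169 in summer, with 2 winter solutions. XAF1, a pro-apoptotic protein, had 46.8 and 53.9 in winter and 30.4 and 65.0 in summer, so both winter values fell between the summer values. For IFI35 the winter counts were 10 and 4 and the summer counts 4 and 2.

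**Figure D3:**
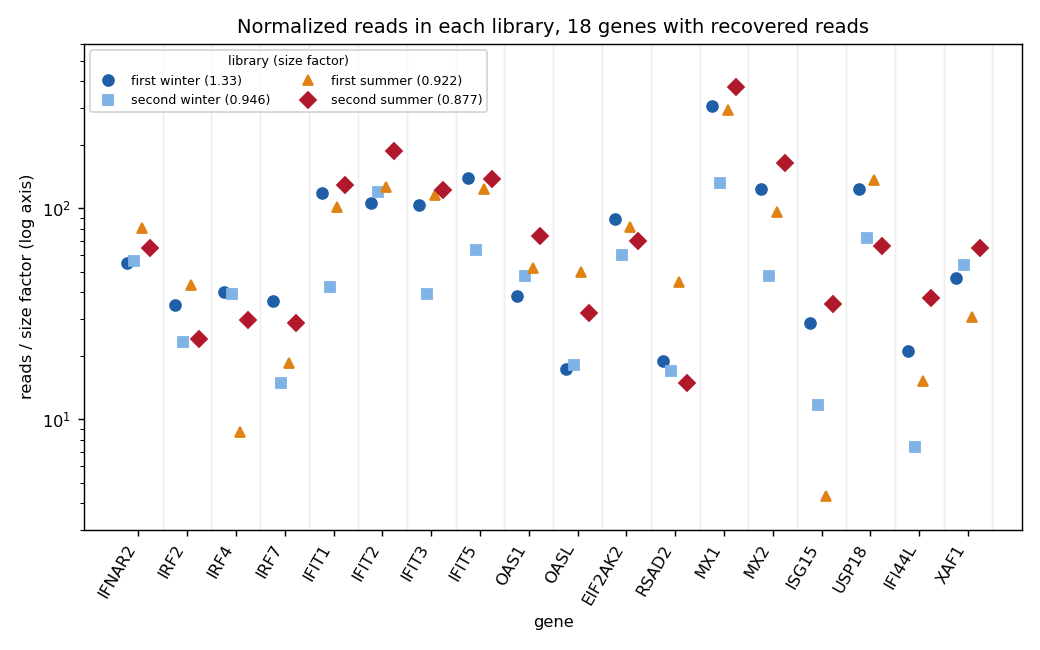
Normalised reads (reads divided by the size factor, log axis) of the 18 genes in each of the 4 libraries. The second winter library (light squares) is lowest for the MX genes and 3 of the 4 IFIT genes, and for OASL both winter libraries lie below both summer libraries.

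Both summer libraries lay above both winter libraries for 5 of the 18 genes (IFNAR2, IFIT2, IFIT3, OAS1 and OASL), against 17.2% of all genes tested. The second winter library was the lowest of the 4 for 9 of the 18, against 23.1%, and the second summer library was the highest for 9 of the 18, against 37.5%.

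The 2 winter animals differed in a subset of the genes. Normalised reads were more than 2-fold higher in the first than in the second winter library for 8 of the 18 genes, against 10.9% of all genes tested, and for none of the 18 was the second more than 2-fold above the first (5.85% of all genes). The 8 were IFIT1, IFIT3, IFIT5, MX1, MX2, IRF7, ISG15 and IFI44L, with ratios from 2.19 to 2.85. OAS1, OASL, IFIT2, RSAD2, IFNAR2, IRF4 and XAF1 had ratios between 0.809 and 1.11 in the same 2 libraries. The median log2 difference between the winter libraries was 0.67 over the 18 genes and 0.06 over all genes tested. The summer libraries were more than 2-fold apart, in either direction, for 6 of the 18 genes, against 34.4% of all genes. Since each animal gave 1 library, a difference between animals and one between dissections or library preparations cannot be told apart.

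**Figure D4:**
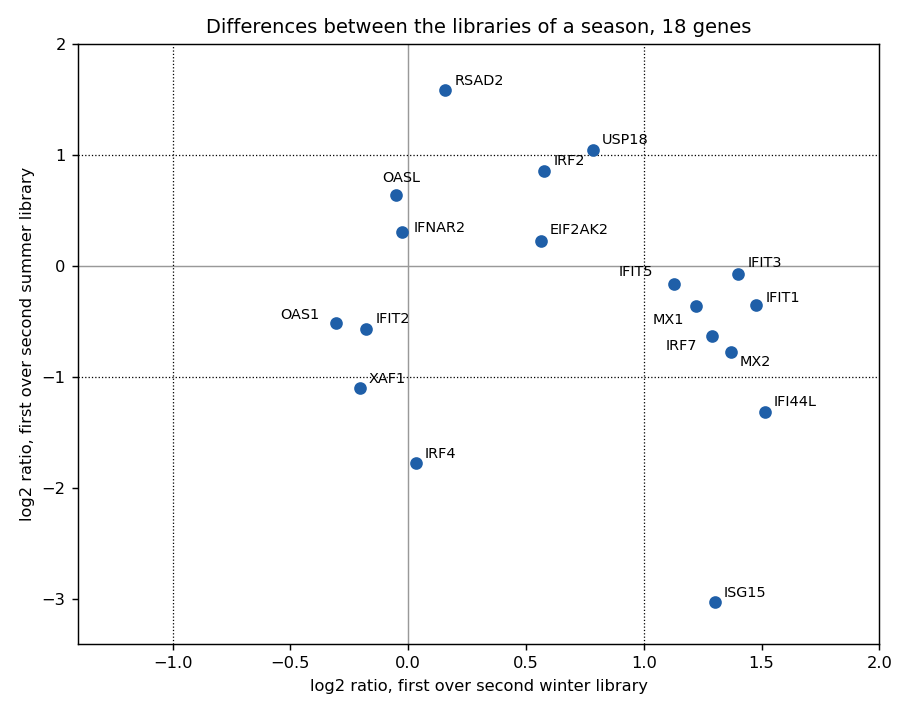
Log2 ratio of the first over the second winter library (horizontal axis) against that of the first over the second summer library (vertical axis), 1 point for each of the 18 genes, with dotted lines at 2-fold. A group of 8 genes lies right of the winter 2-fold line, and ISG15 has the largest difference between the summer libraries.

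Marker genes of the cell types in the dissected tissue also varied among libraries, and their part in the results above was not tested. Over the 14 effectors with recovered reads the summed normalised reads were 1278 in the first winter, 731 in the second winter, 1269 in the first summer and 1507 in the second summer library. The second winter library was also lowest in the sum of 3 markers of supraoptic neurones with recovered reads (79.3, against 120 to 187 in the other libraries). This came through SIM1 and OTP and not POU3F2 (44.4, against 30.4 to 60.4). It was not lowest for the 4 microglia and macrophage markers (300, against 184 to 291). The sum of 3 astrocyte markers was 334 in the first and 157 in the second winter library. In the first and second summer libraries that sum was 137 and 296. Summed season means of the 9 microglia and macrophage markers with means were 6519 in winter and 8503 in summer, and 5 of the 9 were lower in winter. The difference lay mostly in C1QB (2278 in winter and 3476 in summer) and C1QC (1230 and 1778). CSF1R, TMEM119, ITGAM and CD68 had higher means in winter. CD68 had 3 and 2 reads in winter and 0 in both summer libraries, too few to read a difference from. For T cells 4 of 5 markers had lower means in winter, and the summed normalised reads of the 5 were 49.0 and 46.5 in winter and 71.6 and 111 in summer. CD3E made up most of these sums, with 36.2 and 34.9 in winter and 66.1 and 65.0 in summer. CD2 had 26 reads in the second summer library and 0 in the first. CD3D, CD3G and CD8A had means under 10 in both seasons, too few to read a difference from. Summed means of the 6 endothelial markers were 1440 in winter and 1536 in summer, 4 of the 6 being lower in winter, and those of the 5 oligodendrocyte markers were 36989 and 33309, 1 of the 5 being lower. B cell markers summed to 14.8 in winter and 7.90 in summer over 3 genes (1 lower in winter), and the 6 markers of neutrophils and erythroid cells to 358 and 383 (4 lower in winter). Astrocyte markers summed to 15497 and 26109 (3 of 6 lower), mostly GFAP, and neuronal markers to 3313 and 12555 (3 of 5 lower), mostly AVP.

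The other genes of the pathway also had mostly lower means in winter. Of 90 such genes, 64 passed the minimum, and 46 of the 64 had a lower mean in winter (53.8% of all symbols), with a median log2 ratio of -0.22. Of the 37 with recovered reads, 29 were fitted lower in winter (58.4% of all genes tested). Both summer values lay above both winter values for 13 of the 37 (17.2% of all genes) and the reverse held for 3 (13.3%). The first winter library was more than 2-fold above the second for 5 of the 37 and the second above the first for 2, near the shares of all genes (10.9% and 5.85%).

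Only EPSTI1, an interferon-induced gene first described in epithelial and stromal cells, met the rule of the study among the 37 (1.67% of all genes tested), and 0 passed an adjusted p of 0.05. It had 5.28 and 6.35 normalised reads in winter (7 and 6 reads) and 18.4 and 27.4 in summer (17 and 24 reads), without overlap. The fitted log2 change was -1.97 ± 0.80 (SE; Benjamini-Hochberg adjusted p = 0.982 by edgeR). The call, at an unadjusted edgeR p of 0.041, was lost with DESeq2 (p = 0.098), edgeR's exact test (p = 0.053), limma-voom (p = 0.124) and the legacy dispersion fit (p = 0.053), and without either winter library (p = 0.242 and 0.184) or the second summer library (p = 0.067), while the direction was the same throughout.

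The next lowest ratios of the means were those of SP100, a nuclear body protein (16.8 in winter and 36.8 in summer, ratio 0.456), and HERC5, the ligase that attaches ISG15 (11.4 and 24.4, ratio 0.468). The highest ratios were those of PSMB8, an immunoproteasome subunit (14.6 and 6.76, ratio 2.17), TICAM1, the TLR3 adaptor (30.0 and 17.0, ratio 1.76), and DDX60, a helicase linked to RIG-I (28.7 and 17.3, ratio 1.66). None of these 5 met the rule, and their adjusted p-values by edgeR were all 0.982.

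Counts of the ligands differed from gene to gene. Of 8 interferon genes looked for, IFNK (49.1 in winter and 57.0 in summer) and IFNW1 (17.3 and 14.0) had means of at least 10, while IFNG, IFNE, IFNL1 and IFNL3 had 0 to 9 reads in any library. IFNB1 and IFNA were not analysed here, so their level is unknown. Among signalling genes 5 of 8 had lower means in winter, among nucleic acid sensing genes 11 of 15, and among the other induced genes 29 of 39.

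**Figure D5:**
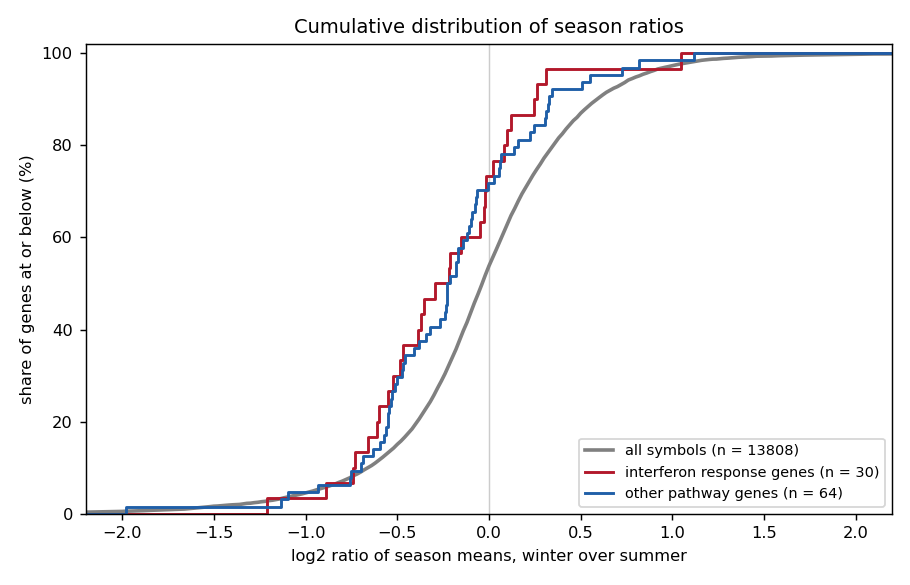
Cumulative share of genes (vertical axis, %) at or below each log2 ratio of season means (winter over summer, horizontal axis) for all symbols (grey, n = 13808), the 30 interferon response genes (red) and 64 other pathway genes (blue). Both coloured curves run left of the grey curve over most of their length, with medians of -0.25 and -0.22 against -0.04.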

How the data were processed

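RNA-seq of the supraoptic nucleus was compared between winter (n = 2) and summer (n = 2). The authors aligned reads from stranded, ribosomal RNA-depleted total RNA with TopHat to a dromedary assembly of their own and used HTSeq for counting. The deposited count files hold raw counts for 64989 gene models without names and gave only depth here. Of the tallied alignments 20.7% to 27.8% were on gene models. Named genes came from the deposited table, whose signal columns are season means of counts divided by DESeq size factors. The authors' edgeR fold changes and p-values in that table were not used. Versions of their tools are not given in the sources used here.

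Whole reads were recovered from the means, printed to 6 significant digits: 1 read was worth 0.377 or 0.529 in winter and 0.542 or 0.570 in summer, and each mean was solved for 2 whole numbers to within rounding of the last digit (tolerance 1.02 rounding errors). All 16053 symbols with means (100%) were solved, 9889 with a single solution in both seasons. Above a mean of 100 single solutions become rare, in winter sooner than in summer. The 7647 genes that had single solutions and reached a mean of 10 in either season were fitted with edgeR 4.0.16 in R 4.3.3 (glmQLFit, legacy set to FALSE, glmQLFTest), scaled by the size factors, with Benjamini-Hochberg adjustment. Only the 18 genes that passed could be tested. Alternatives were other scalings, filters and fold thresholds, DESeq2 1.42.0, limma-voom (limma 3.58.1), the exact test, the other read solutions and leaving out each library. Scripts were tested on simulated data.

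Every gene of the list is accounted for, those reaching a mean of 10 by name. Of the other pathway genes, those past the rule of the study and the 3 largest mean ratios in each direction were named. The genes and lists were chosen with earlier results of these data known. EIF2AK2 carried a stray final character in the list and was matched without it. RefSeq names (assembly mCamDro1.pat) matched 30 of the 37 genes and gave only neighbours. Reads shared between paralogues (IFIT, MX and OAS genes) were not measured. Having 2 animals per season limits precision throughout, and the limit given for a count of 0 covers counting error only.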

Additional observations from a re-analysis of the deposited data

How the results depend on the processing

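The median log2 change of the genes tested, and the median log2 ratio of the season means, stayed below 0 under all alternatives run. The median of all genes was also below 0 in every fit but that without the second summer library (0.16). Without the second winter library the median of the 18 genes (-0.05) lay above that of all genes (-0.11). Every alternative that kept all 4 libraries left 0 of these genes past an adjusted p of 0.05. Fits that left out 1 library have 1 library in a season and are described by effect sizes only. The number of the 18 genes that met the rule of the study was 0 with all 4 libraries. Of all 30 genes it was 1 with the most even and 1 with the least even read solutions, OASL in each, where the spread shared over all genes changes with that choice. The number fitted lower in winter was 14 of 18 (58.4% of all genes tested) and 10 to 16 on leaving out 1 library. It was 22 of 30 with the least even solutions and 7 of 11 where both means were under 100, an alternative chosen after seeing the data. Genes more than 2-fold apart in season means numbered 2 of 30 (7.26% of all symbols), against 8 at a threshold of 1.5 and 0 at a threshold of 3. Near the threshold of 1.5, 12.3% of all symbols lay at or below a log2 ratio of -0.58, and 89.7% at or below 0.58. The number was 4 without the filter on low means and 1 with a pseudocount of 5. Shares of all genes are not given for the other alternatives, so their counts are not set against a background. Winter values lay wholly above summer values for 1 gene, against 2 without the filter and 3 of 30 with the most even solutions. The median of all genes tested was -0.11 and moved to -0.02 when scaled by total recovered reads.

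Signs reversed only near 0 or on leaving out 1 library. EIF2AK2 was 0.015 with RLE size factors, 0.071 with total recovered reads and 0.022 with the most even solutions, and USP18 was 0.011 with limma-voom and 0.0016 with total recovered reads. On leaving out 1 library, the log2 changes ranged from -0.32 to 0.24 (EIF2AK2), -1.44 to 0.037 (IFIT1), -1.04 to 0.087 (IFIT5), -0.57 to 0.29 (IRF2), -0.66 to 0.63 (IRF7), -0.78 to 2.22 (ISG15), -1.30 to 0.27 (RSAD2), -0.50 to 0.57 (USP18) and -0.37 to 0.72 (XAF1). No paired analysis was possible because the seasons share only 1 replicate number and the recovered libraries carry none.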
